A study of Mus musculus with 6 samples.

Results

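The genes described here are 146 genes whose RNA was highest in adult gastrocnemius muscle of the mouse and clearly lower in every earlier library of a developmental series. They were selected on measured values: a gene had at least 1 FPKM (fragments per kilobase of gene, scaled to the depth of the library) in the adult library and at least 2 times the highest FPKM of the other 5 libraries, and entries whose symbols had turned into dates were left out. Of 23367 gene entries, 146 met the rule (0.625%), which was 1.41% of the 10373 entries with at least 1 FPKM in the adult. The adult excess therefore chose the genes and is given only as a description, without a test. All mice were wild type FVB, and the muscle was the gastrocnemius, the calf muscle, in every library. The libraries came from E18.5 (embryonic day 18.5, 21 mice pooled, male and female), PN2 (postnatal day 2, 6 male mice pooled), PN14 (replicates 1 and 2, each 1 male mouse), PN28 (1 male mouse) and the adult at 22 weeks (1 male mouse). Each library was sequenced on a lane of its own, so lane and stage cannot be told apart, and the adult level of every gene rests on a single mouse. In bulk RNA, fewer cells of a type and less RNA per cell cannot be told apart.

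Skeletal muscle of the limb goes on maturing for weeks after birth, as fibres switch from developmental to adult contractile proteins, fast fibres come to depend on glycolysis, and the fibres reach their final size. Adult fibres hold their size by balancing protein synthesis against breakdown, in which ubiquitin ligases such as atrogin-1 (Fbxo32) mark proteins for the proteasome. Polyamines, small cations that bind nucleic acids and are linked with muscle growth, are made from ornithine by ornithine decarboxylase (Odc1) and then lengthened with groups supplied by S-adenosylmethionine decarboxylase (Amd1 and Amd2). Muscle also has a circadian clock, in which the factors Clock and Arntl act on E-box sequences and nuclear receptors such as Rora act on Arntl.

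The libraries held between 125402932 and 157868359 counts on genes. Changes between the stages before adulthood were tested on the counts with edgeR's quasi-likelihood test, and a gene counts as called, and as having risen or fallen, where it changed at least 2-fold with an adjusted p below 0.05. PN14 alone had 2 libraries, so its pair gave the spread for all stages. The test itself gives no standard error. SE here stands for the size of the log2 fold change divided by the square root of the test's F statistic. TMM factors, edgeR's scaling between libraries, ran from 1.45 at E18.5 and PN2 down to 0.714 in the adult, and deposited FPKM does not carry this scaling. Myofibre markers (Acta1, Ckm, Des, Mb, Myh4, Mylpf, Tnnt3 and Atp2a1) summed to 33117, 36936, 130505, 105535, 138647 and 118822 FPKM from E18.5 to the adult, so that the adult sum was below that of PN28. Of 12 lists of cell type markers, 9 had their lowest summed FPKM in the adult library (7 after TMM scaling), and none held any of the 146 genes.

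The adult levels of the 146 genes ran from 1.02 to 898 FPKM with a median of 15.5 FPKM, and 15 genes were at 100 FPKM or above. The lowest adult count was 126 fragments (Ucn), so counting error on the adult level was small even for the rarest of them. The ratio also rests on the earlier counts. Ucn had 63 fragments at PN28 and a ratio of 2.08, so its place inside the limit of 2 is uncertain. For most genes the adult excess was moderate. The ratio of the adult FPKM to the highest other library had a median of 2.51, it was under 2.5 for 72 genes, and it reached 5 for 16 genes and 10 for 6 genes. The largest ratio, 56.0, belonged to Rasd2. Nearest inside the limit of 2 were Kcmf1 (2.01), Klhl21 (2.02) and Mr1 (2.02), and nearest outside it were Rnf144b (1.99), Klhl38 (1.98) and Ubxn2a (1.98).

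**Figure D1:**
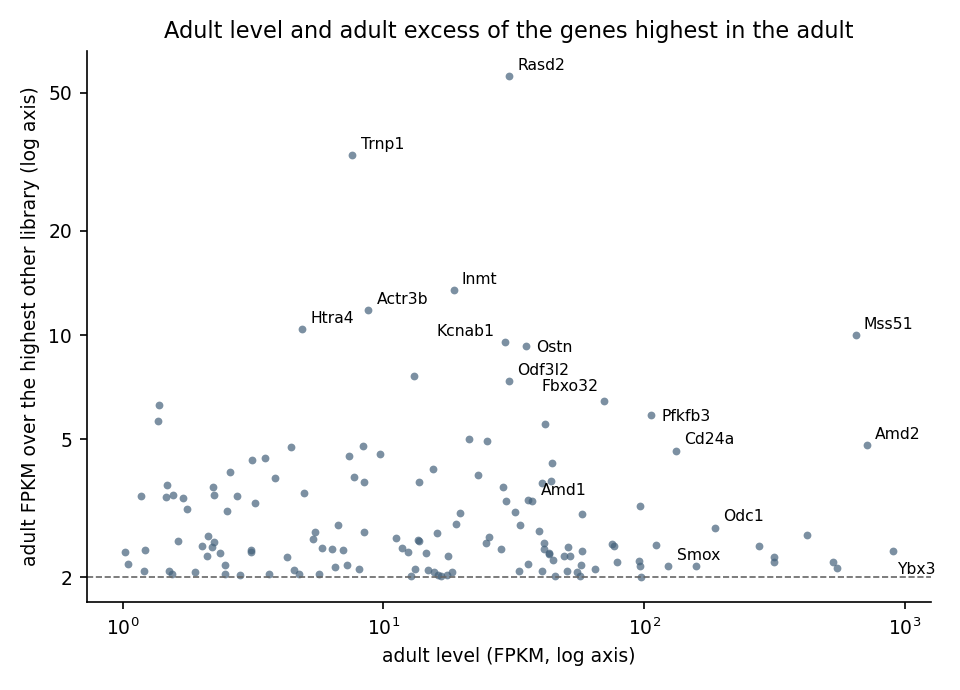
Adult level (horizontal axis, FPKM, log scale) against the ratio of the adult FPKM to the highest FPKM of the other 5 libraries (vertical axis, log scale), with 1 point for each of the 146 genes and the rule's limit of 2 as a dashed line. Rasd2 stands at a ratio of 56.0, while Ybx3, the most abundant of the genes, has a ratio of 2.38.

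The libraries that came closest to the adult level were mostly those of PN28. PN28 was the highest of the other libraries for 108 genes (132 after TMM scaling), E18.5 for 13, PN2 for 9 and a PN14 library for 16. Relative to the adult, the median level was 14.5% at E18.5 and 14.3% at PN2. It was 25.3% and 20.3% in the PN14 mice and 36.7% at PN28. Through the stage means before adulthood, 53 genes were higher at every stage than at the one before, and 73 were so after TMM scaling. In deposited FPKM, 23 genes were no higher at PN28 than at E18.5, Odc1 and Phlda3 among them. After TMM scaling only 3 were, namely Ostn, Mib1 and Trnp1, the last pair being chosen after their values were seen. In all, 35 genes stayed under 1 FPKM in every library before the adult, and for 10 of them the highest earlier value was under 0.5 FPKM.

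**Figure D2:**
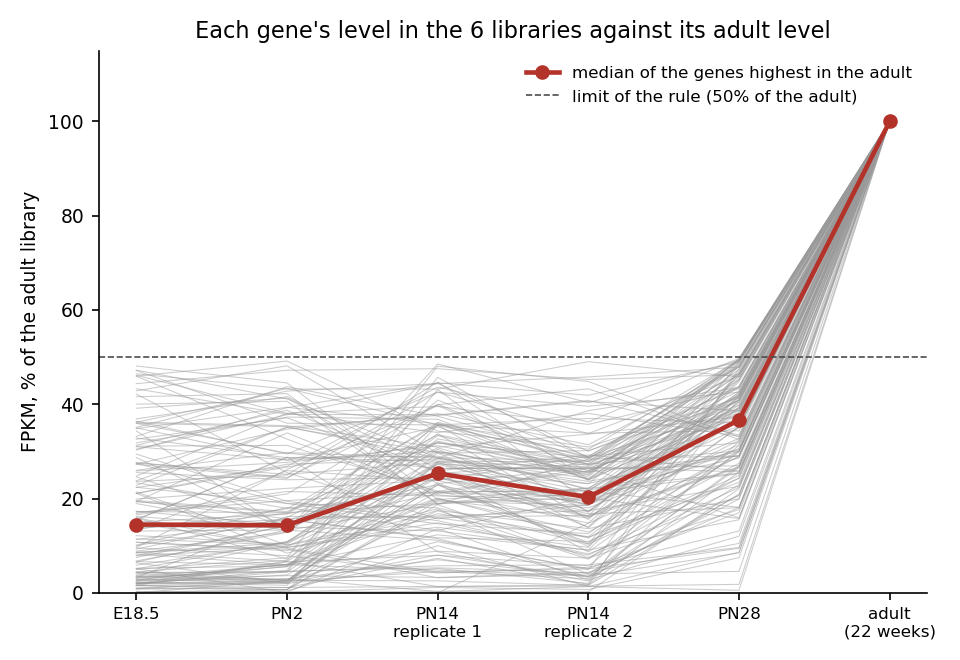
Level of each of the 146 genes in the 6 libraries as a percentage of its own adult FPKM (grey lines), with the median in red and the rule's limit of 50% dashed. The median stands at 14.5% at E18.5 and 36.7% at PN28, and among the lines that run down from E18.5 to PN14 is that of Ostn.

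The stages before adulthood give a contrast that the rule did not make, but they are not independent of it, since their libraries entered the rule. The rule used deposited FPKM, so after TMM scaling its limit is stricter at PN2 than at PN28. Part of a rise between these stages can therefore come from the rule. All 146 genes passed the filter on low counts, with the adult library in the fit and without it. From PN2 to PN28, edgeR's quasi-likelihood test called 105 of the 146 genes (71.9%) higher and none lower. Of all 16882 genes tested, 14.3% were called higher and 12.7% lower, and of the 10373 with at least 1 FPKM in the adult 20.3% were called higher. The median log2 fold change was 1.83 for the 146 genes and -0.04 for all genes. Most of the genes highest in the adult had therefore risen by PN28, and those not called included Odc1, Ostn, Phlda3, Cmya5, Lars2 and Trnp1. With library size alone 67 were higher and 1 lower, while 852 of all genes were higher and 6299 lower and the median of all genes moved to -0.92. Without the adult library in the fit 101 genes were called.

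**Figure D3:**
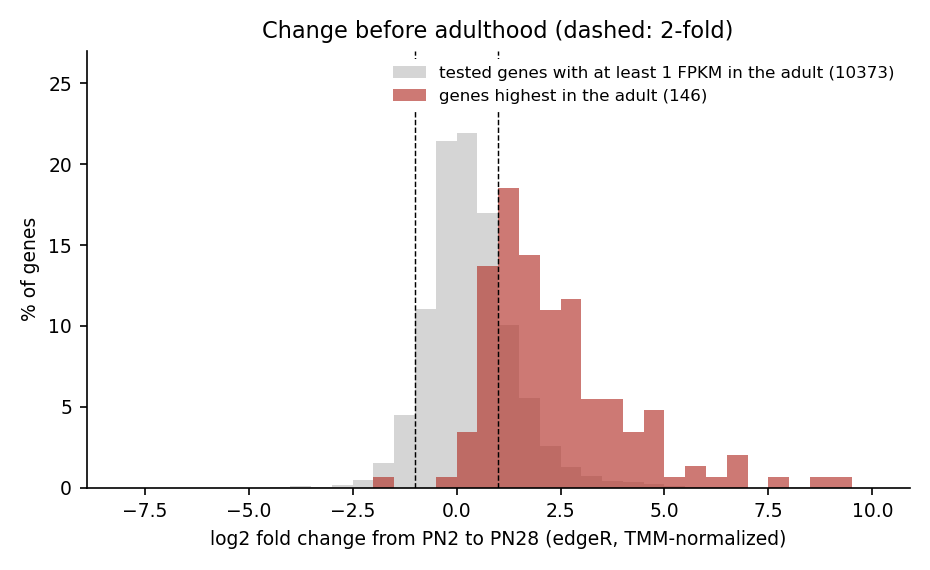
Distribution of the log2 fold change from PN2 to PN28 (edgeR, TMM-normalized counts) for the 146 genes (red) and for all tested genes with at least 1 FPKM in the adult (grey), as a percentage of each set, with 2-fold changes dashed. The red bars lie mostly to the right of 1, where 105 of the 146 genes were called higher.

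Shorter intervals held fewer calls. From PN2 to PN14, 55 genes were called higher and 1 lower, where 11.8% of all genes tested were called higher and 11.2% lower, and 15.9% of those with at least 1 FPKM in the adult were called higher. With library size alone the split was 38 higher and 6 lower, and that of all genes was 854 higher and 4971 lower. From PN14 to PN28, 2 genes were called, Slc15a5 and Bdh1, both higher, against 0.0178% of all genes tested. At an unadjusted p under 0.05 it was 79 of the 146 and 1420 of all genes, and DESeq2's Wald test called 22 of the 146 and 0.911% of all genes. From E18.5 to PN2 edgeR called none of the 146, against 0.0296% of all genes. At an unadjusted p under 0.05 it was 22 of the 146 and 1121 of all genes, and DESeq2's Wald test called 7 of the 146 and 1.03% of all genes. The comparisons share libraries and are not independent of each other.

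Of the 17 pathway lists, that of polyamine and arginine genes held the most genes that met the rule, 4 of 16 (Amd2, Amd1, Odc1 and Smox). Amd1 and Amd2 are near copies whose fragments are hard to tell apart, as described below, so they may not be separate signals. Of all gene entries 0.625% met it. The lists were chosen with earlier results of these data known, so their order is a description only. The 6 values given for a gene are those of E18.5, PN2, PN14 replicate 1, PN14 replicate 2, PN28 and the adult, in this order. For Odc1 the libraries gave 67.0, 55.3, 49.2, 49.1, 50.3 and 186 FPKM. Its 5 earlier libraries lay close together, and the adult level was 2.78 times the highest of them. Levels of Amd2 were 24.01, 17.6, 32.1, 21.2, 148 and 715 FPKM. Amd1 stood at 0.58, 2.43, 2.95, 2.13, 11.2 and 37.2 FPKM. Both decarboxylase genes were low through PN14, higher at PN28 and highest in the adult. For Smox the libraries gave 9.7, 11.9, 17.2, 11.9, 57.4 and 124 FPKM. Smox encodes spermine oxidase, which turns spermine back into spermidine, and it too was low through PN14 and higher at PN28.

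Amd1 and Amd2 have to be read as a pair. In mm9, Amd1 lies on chromosome 10 from 40007265 to 40021992 (minus strand, 8 exons) and Amd2 on chromosome 10 from 35428497 to 35431697 (minus strand, 1 exon), and their coding sequences, both of 1005 bases, differ at 1 base (99.9% identity). The stretches around that base, coding positions 766 to 826 counted from the first base of the start codon and shown because they hold the only coding difference between the copies (G796C from Amd1 to Amd2, in capitals), are as follows.
Amd1: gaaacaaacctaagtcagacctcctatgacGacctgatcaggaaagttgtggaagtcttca
Amd2: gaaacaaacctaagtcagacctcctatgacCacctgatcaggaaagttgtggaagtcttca
Fragments that do not cover this base cannot be told apart within the coding sequence, so the division between the copies is uncertain and their sum is the safer value. In the order of the libraries, the sum was 24.6, 20.01, 35.1, 23.3, 159.5 and 752 FPKM. These correspond to 12230, 9878, 13881, 11064, 74618 and 337995 counts.

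No other gene of the list met the rule. Levels of Sms were 44.5, 44.1, 39.0, 33.7, 37.1 and 55.9 FPKM. Srm stood at 43.4, 35.9, 10.1, 13.1, 8.06 and 5.78 FPKM. For Sat1 the libraries gave 29.3, 30.4, 17.8, 20.6, 14.2 and 9.96 FPKM. Spermine synthase (Sms) was highest in the adult by less than 2-fold, whereas spermidine synthase (Srm) and the acetyltransferase Sat1 were lowest there. Levels of Azin1 were 42.5, 38.7, 21.9, 27.8, 16.4 and 12.4 FPKM. Azin1, the antizyme inhibitor that protects ornithine decarboxylase from breakdown, was lowest in the adult as well. Outside the list, Adi1, an enzyme of the methionine salvage pathway that recovers the by-product of spermidine and spermine synthesis, also met the rule (chosen after its values were seen). Adi1 stood at 11.8, 12.6, 14.2, 11.5, 22.6 and 45.6 FPKM.

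Before adulthood, between PN2 and PN28, 3 of the 4 polyamine genes had already risen. Amd1 and Amd2 are among them, and since their fragments are hard to tell apart, their calls are not separate results. The edgeR log2 fold change was 3.96 (SE 0.60, adjusted p = 0.00995) for Amd2. For Amd1 it was 3.09 (SE 0.38, adjusted p = 0.0073). For Smox it was 3.17 (SE 0.43, adjusted p = 0.00838). Odc1 did not pass, with a log2 fold change of 0.75 (SE 0.30, adjusted p = 0.1). Over the list of 16 genes, 5 rose (Amd1, Amd2, Smox, Oaz1 and Oaz2, the last pair being antizymes that inhibit ornithine decarboxylase) and 1 fell, Srm, with a log2 fold change of -1.27 (SE 0.20, adjusted p = 0.0107). The list median was a log2 fold change of 0.04, against -0.04 over all 16882 genes tested, of which 14.3% rose and 12.7% fell. With library size alone in place of TMM the calls of Oaz1 and Oaz2 were lost.

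**Figure D4:**
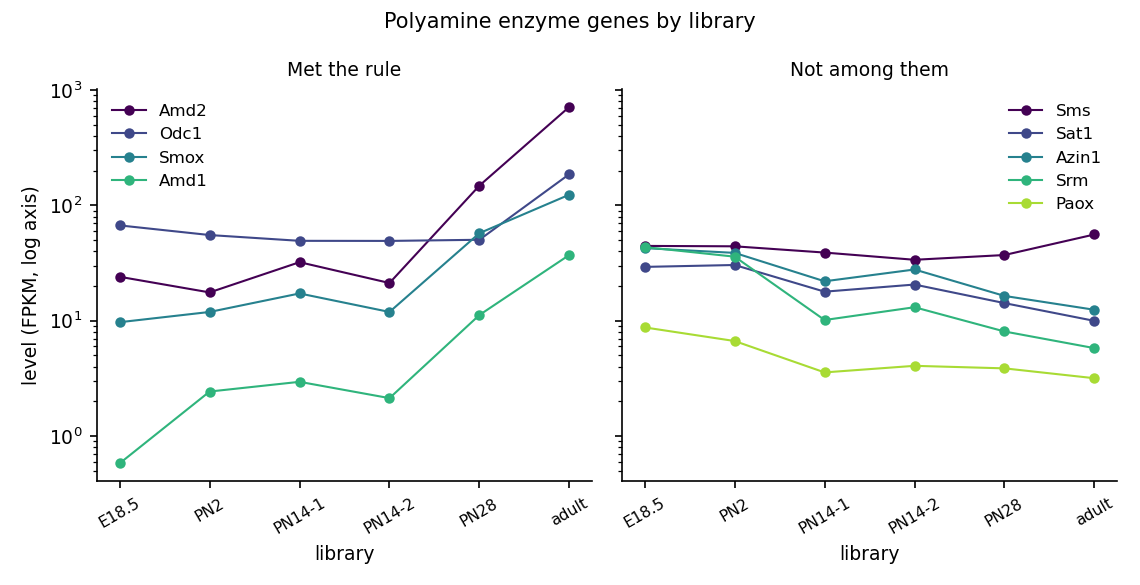
FPKM (log axis) of polyamine genes in the 6 libraries, with the 4 genes that met the rule on the left and 5 other genes of the pathway on the right (PN14-1 and PN14-2 are the replicates). Amd2 goes from 148 FPKM at PN28 to 715 FPKM in the adult, while Srm ends at 5.78 FPKM.

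Several of the most abundant genes encode proteins of the contractile apparatus and its supporting filaments. For Mylk2 the libraries gave 46.6, 68.1, 178, 82.2, 238 and 529 FPKM. Mylk2 is the skeletal muscle kinase of the myosin regulatory light chain, and it was the only one of the 16 listed fast fibre genes to meet the rule. Levels of Mylk4 were 72.1, 73.3, 61.3, 27.1, 259 and 551 FPKM. Mylk4 encodes a related kinase, and it was lower in PN14 replicate 2 than in any other library. Cmya5 stood at 33.3, 59.8, 129, 91.7, 159 and 419.8 FPKM. For Synm the libraries gave 4.11, 6.44, 82.0, 38.0, 112 and 275 FPKM. Cmya5 (myospryn) is a large costamere protein and Synm (synemin) is an intermediate filament protein that links desmin to the membrane. Synm was low before PN14 and had a higher level at each later stage.

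Levels of Ybx3 were 176, 155, 287, 228, 377 and 898 FPKM. Ybx3, a cold shock protein that binds DNA and RNA, had the highest adult level of the 146 genes. Mss51 stood at 1.45, 2.4, 64.7, 8.64, 55.6 and 648 FPKM. Mss51 encodes a zinc finger protein enriched in muscle, and its levels in the PN14 mice differed 7.48-fold. For Anapc5 the libraries gave 103, 90.1, 87.9, 67.6, 138 and 315 FPKM. Levels of Serpinb6a were 43.9, 43.5, 79.4, 63.2, 142 and 314 FPKM. Anapc5 is a subunit of the anaphase promoting complex, a ubiquitin ligase, and Serpinb6a is an intracellular inhibitor of serine proteases. Serpinb6a had higher levels at PN14 than at PN2.

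Synm rose, and its edgeR log2 fold change from PN2 to PN28 was 4.98 (SE 0.82, adjusted p = 0.0113). Those of the kinases were 2.70 (SE 0.73, adjusted p = 0.0381) for Mylk2 and 2.71 (SE 0.81, adjusted p = 0.0495) for Mylk4. Serpinb6a had a log2 fold change of 2.63 (SE 0.39, adjusted p = 0.00953), Ybx3 had a log2 fold change of 2.13 (SE 0.49, adjusted p = 0.0249) and Mss51 had a log2 fold change of 5.42 (SE 1.5, adjusted p = 0.0399). For Anapc5 the value was 1.5 (SE 0.44, adjusted p = 0.0463). Cmya5 missed the threshold, with a log2 fold change of 2.30 (SE 0.71, adjusted p = 0.0541). With DESeq2's Wald test the calls of Mylk2, Mylk4 and Mss51 were lost and that of Cmya5 was gained, and with library size alone that of Anapc5 was lost. Cmya5 was also called with library size alone, without the filter on low counts and without the adult library. With DESeq2's size factors in edgeR those of Mylk4 and Anapc5 were lost. Grouped by role after the values were seen, 7 of 13 contractile, filament and cytoskeletal genes rose from PN2 to PN28, against 71.9% of all 146 genes and 14.3% of all genes tested.

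Genes of the ubiquitin pathway formed another group. Fbxo32 stood at 1.9, 4.23, 8.61, 6.36, 10.8 and 70.0 FPKM. Fbxo32 encodes atrogin-1, the muscle ubiquitin ligase known for its rise in wasting muscle, and its adult level was 6.46 times the highest earlier one. Trim63, which encodes MuRF1, the other ligase known from wasting, did not meet the rule. For Trim63 the libraries gave 19.3, 25.9, 70.9, 51.6, 74.1 and 127 FPKM. The adult library was highest for both ligases. The Asb family, substrate adaptors of cullin ubiquitin ligases, gave 3 genes (chosen after their values were seen). Levels of Asb10 were 2.89, 8.45, 22.4, 19.02, 35.5 and 78.4 FPKM. Asb11 stood at 4.96, 5.41, 24.9, 13.3, 42.7 and 95.3 FPKM. For Asb15 the libraries gave 1.05, 0.77, 6.26, 2.56, 10.7 and 35.9 FPKM. All 3 were under 10 FPKM at E18.5 and PN2 and were higher at each later stage. Kcmf1 and Klhl21, which stood nearest the limit, also belong to ubiquitin ligases.

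The edgeR log2 fold change from PN2 to PN28 was 2.25 (SE 0.40, adjusted p = 0.0132) for Fbxo32, 2.96 (SE 0.31, adjusted p = 0.00645) for Asb10, 3.87 (SE 0.58, adjusted p = 0.00955) for Asb11 and 4.69 (SE 0.77, adjusted p = 0.0111) for Asb15. In a group of 12 ubiquitin pathway genes made after the values were seen, 8 rose and none fell, while 71.9% of all 146 genes rose. Fbxo32 and Klf15 were the only 2 of the 28 listed FoxO and glucocorticoid response genes that met the rule, although 11 of the 28 were higher in the adult than in every other library. The list summed to 569, 621, 674, 626, 782 and 1094 FPKM over the libraries. Of the 27 tested, 14 rose and 1 fell from PN2 to PN28, with a median log2 fold change of 1.14. Of all genes tested 14.3% rose and 12.7% fell, with a median of -0.04.

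Nuclear receptors and clock genes were among the transcription factors. Levels of Rora were 1.93, 3.55, 3.59, 2.5, 5.22 and 12.4 FPKM. Rora encodes a nuclear receptor that activates Arntl, and its PN28 level was the highest before the adult. For Gm129 the libraries gave 0.93, 0.37, 0.77, 0.6, 0.88 and 4.41 FPKM. Gm129, also called Ciart, encodes a repressor of Clock and Arntl, and it was under 1 FPKM in all 5 earlier libraries. Levels of Klf15 were 6.02, 2.31, 8.51, 7.07, 8.65 and 17.5 FPKM. Klf15, a zinc finger factor that responds to glucocorticoids and varies with the time of day, had its lowest level at PN2. Thrb stood at 0.07, 0.16, 1.57, 0.7, 1.78 and 3.64 FPKM. Thrb encodes thyroid hormone receptor beta and was barely detected before PN14.

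Of the 6 listed clock genes of the Arntl phase 1 met the rule (Rora), and of the 12 measured genes of the Dbp phase another did (Gm129). Even so, 9 of these 12 were higher in the adult than in every other library. Their levels summed to 113, 134, 229, 161, 249 and 367 FPKM over the libraries. For Dbp the libraries gave 5.3, 6.33, 28.6, 13.3, 45.1 and 70.0 FPKM. The Arntl phase list summed to 35.05 FPKM in the adult and to between 24.97 and 39.6 FPKM in the other libraries, though after TMM scaling the adult sum was the highest. The labels and methods used here give no time of day for the dissections, so time of day and stage cannot be told apart. Immediate early genes, known for fast responses to stimuli, had no member among the 146 and summed to 163 FPKM in the adult, within the range of 131 to 283 FPKM of the earlier libraries.

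From PN2 to PN28 the edgeR log2 fold change was 2.79 (SE 0.31, adjusted p = 0.00683) for Klf15 and 4.36 (SE 0.72, adjusted p = 0.0113) for Thrb. For Gm129 it was 2.15 (SE 0.46, adjusted p = 0.0201). Rora had a log2 fold change of 1.44 (SE 0.40, adjusted p = 0.0409). With library size alone the calls of Gm129 and Rora were lost, and without the adult library in the fit that of Rora was lost. Among the 12 listed clock genes of the Dbp phase 8 rose, and of the 6 of the Arntl phase 1 rose and 1 fell, against 14.3% and 12.7% of all genes tested. The group of 17 transcription and chromatin factors, made after the values were seen, held 15 genes that rose from PN2 to PN28, where 71.9% of all 146 genes did. Both counts include Hmga2-ps1, by its symbol a pseudogene and not a factor itself.

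Promoter windows (250 bases before to 50 after each transcription start) were found in RefSeq for 104 of the 146 genes, in build GRCm38.p6. The E-box CACGTG, which reads the same on both strands, was in the windows of 15 of the 104 (14.4%), against 12.4% of genes with at least 1 FPKM in the adult and 9.18% of all genes matched. Gm129 and Klf15 held 3 E-boxes each, the most of the 104, and are shown for that reason with the E-boxes in capitals.
Gm129 (chr3:95882259-95882358, minus strand, from 130 bases before the start): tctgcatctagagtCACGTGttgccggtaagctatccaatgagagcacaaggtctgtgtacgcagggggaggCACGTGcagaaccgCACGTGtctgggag
Klf15 (chr6:90462341-90462578, plus strand, from 235 bases before the start): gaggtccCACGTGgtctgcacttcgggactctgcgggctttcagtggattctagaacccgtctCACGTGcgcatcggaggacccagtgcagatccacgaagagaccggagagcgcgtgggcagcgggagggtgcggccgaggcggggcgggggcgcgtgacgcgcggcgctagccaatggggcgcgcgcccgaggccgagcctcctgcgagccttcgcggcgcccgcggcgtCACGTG
Both genes had higher adult than earlier levels, but so did genes without the motif, and the match is a description of the letters alone.

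The other motifs were also searched on both strands. The short glucocorticoid receptor motif AGAACA was in 15.4% of the windows of the 146 genes, 14.3% of those of adult-expressed genes and 18.8% of all. The forkhead site TGTTTAC was in 0.962%, 3.04% and 3.46%, and the cAMP element TGACGTCA in 0.962%, 3.78% and 2.61%. The D-box TTATGTAA and the MEF2 sites CTATTTATA and CTAAAAATA were in none of the 104 windows, and in 1.04% and 1.01% of all windows. The TATA box TATAAA was in 18.3% of the windows, against 8.85% and 14.4%. Median CpG counts per 300 bases were 16.5, 23 and 15, so base composition differed along with the TATA share. At 40 to 20 bases before the start, on the coding strand, the TATA box was found in 4 of the 104 (3.85%, against 1.55% and 3.02%), in Myoc, Nqo1, Retnla and Tfcp2l1. The stretches of the secreted factors Retnla and Myoc are shown, with the TATA box in capitals.
Retnla (chr16:48842529-48842608, plus strand, from 80 bases before the start): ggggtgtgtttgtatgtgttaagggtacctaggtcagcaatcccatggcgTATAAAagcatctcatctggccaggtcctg
Myoc (chr1:162639100-162639149, plus strand, from 50 bases before the start): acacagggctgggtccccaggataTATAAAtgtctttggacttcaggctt
Their levels over the series are given with the other secreted factors.

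Enzymes of intermediary metabolism were the next group. Levels of Pfkfb3 were 4.72, 2.87, 11.6, 5.45, 18.1 and 107 FPKM. Pfkfb3 sets the level of fructose 2,6-bisphosphate, an activator of glycolysis, and it was the only one of the 25 listed glycogen and glucose genes to meet the rule, although 15 of the 25 were highest in the adult. Nmrk2 stood at 2.06, 1.93, 24.7, 8.39, 30.1 and 96.7 FPKM. For Me1 the libraries gave 5.62, 12.1, 33.7, 19.3, 44.8 and 111 FPKM. Nmrk2 phosphorylates nicotinamide riboside, a step towards NAD, and Me1 is the cytosolic malic enzyme, a source of NADPH. Both had higher levels at PN14 than at PN2 and higher ones again at PN28. Levels of Inmt were 0.01, 0.03, 0.21, 0.13, 1.38 and 18.6 FPKM. Chac1 stood at 0.79, 0.31, 14.1, 13.6, 20.7 and 50.9 FPKM. Inmt methylates small amines and Chac1 breaks down glutathione. Inmt was almost absent before PN28 and Chac1 before PN14.

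For Bdh1 the libraries gave 0.66, 0.51, 0.1, 0.13, 1.97 and 7.68 FPKM. Bdh1 is a mitochondrial enzyme of ketone body use (chosen after its values were seen). It was lower at PN14 than at E18.5 and first exceeded its E18.5 level at PN28. None of the 22 listed fatty acid use genes met the rule. Their sum was 1066 FPKM in the adult, against 794 FPKM at E18.5 and 3083 FPKM in PN14 replicate 2. After TMM scaling the adult sum (1494) was above those of E18.5 (547) and PN2 (1485) and below those of PN14 and PN28.

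Among the metabolic genes, the edgeR log2 fold change from PN2 to PN28 was 6.96 (SE 0.31, adjusted p = 0.00356) for Chac1 and 6.54 (SE 0.64, adjusted p = 0.00598) for Inmt. Nmrk2 had a log2 fold change of 4.85 (SE 0.89, adjusted p = 0.0143), Pfkfb3 had a log2 fold change of 3.56 (SE 0.67, adjusted p = 0.0152) and Me1 had a log2 fold change of 2.78 (SE 0.54, adjusted p = 0.0159). In the group of 17 metabolic and redox enzymes made after the values were seen, 14 rose from PN2 to PN28, where 71.9% of all 146 genes did. Bdh1 was the only one of the 146 genes that was called lower from PN2 to PN14, with a log2 fold change of -1.52 (SE 0.24, adjusted p = 0.0098). It then rose from PN14 to PN28, with a log2 fold change of 4.37 (SE 0.23, adjusted p = 0.011), a call that was lost without the adult library in the fit.

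Channels, transporters and signalling proteins included Rasd2, the gene with the largest ratio of all. Rasd2 stood at 0.23, 0.34, 0.41, 0.42, 0.54 and 30.2 FPKM. Rasd2 encodes a small Ras-like GTPase best known from the striatum of the brain, and its 5 earlier libraries all lay within 0.23 to 0.54 FPKM (101 counts at E18.5 and 11921 counts in the adult). For Kcnab1 the libraries gave 0.77, 1.06, 0.95, 1.27, 3.06 and 29.2 FPKM. Levels of Slc15a5 were 0.02, 0.01, 0.03, 0.02, 2.13 and 9.66 FPKM. Kcnab1 is a beta subunit of voltage-gated potassium channels and Slc15a5 belongs to the proton-coupled peptide transporter family. Slc15a5 was at 0.03 FPKM or less until PN28. Cacna2d4 stood at 0.01, 0.03, 0.32, 0.3, 0.34 and 1.17 FPKM. Cacna2d4, an auxiliary subunit of calcium channels, was the only one of the 28 listed channel and exchanger genes to meet the rule and was near the lower limit of 1 FPKM.

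For Ctxn3 the libraries gave 1.39, 1.91, 2.21, 1.77, 7.55 and 41.8 FPKM. Levels of Odf3l2 were 0.01, 0.03, 4.11, 0.82, 3.63 and 30.2 FPKM. Ctxn3 is a cortexin, a small membrane protein, and Odf3l2 is named for a protein of the sperm tail. Odf3l2 was near 0 before PN14, and its levels in the PN14 mice differed 5.01-fold. Phlda3 stood at 16.2, 17.1, 9.59, 11.03, 10.6 and 41.5 FPKM. Phlda3, a p53 target that restrains Akt signalling, had lower FPKM from PN14 to PN28 than at E18.5 and PN2, an order that did not hold after TMM scaling, and it was the only one of the 17 listed p53 and cell cycle arrest genes to meet the rule. Trnp1, chosen after its values were seen, had the second largest ratio, 33.0, with at most 0.23 FPKM before the adult and 7.59 FPKM in it.

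From PN14 to PN28, Slc15a5 had the larger of the 2 called rises, with a log2 fold change of 6.60 (SE 0.30, adjusted p = 0.00903). From PN2 to PN28 the edgeR log2 fold change was 8.87 (SE 0.45, adjusted p = 0.00356) for Slc15a5, 7.92 (SE 1.61, adjusted p = 0.0179) for Odf3l2 and 4.23 (SE 0.44, adjusted p = 0.00611) for Cacna2d4. Kcnab1 had a log2 fold change of 2.42 (SE 0.22, adjusted p = 0.00559) and Ctxn3 had a log2 fold change of 2.87 (SE 0.33, adjusted p = 0.00703). Rasd2 also passed, with a log2 fold change of 1.58 (SE 0.24, adjusted p = 0.00955), at levels that stayed under 1 FPKM, and the call was lost with library size alone. Phlda3 did not pass, with a log2 fold change of 0.20 (SE 0.19, adjusted p = 0.445).

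Secreted factors came from several courses. For Ostn the libraries gave 3.78, 3.25, 1.12, 1.41, 1.6 and 35.2 FPKM. Ostn encodes osteocrin (musclin), a peptide released by muscle and bone, and its adult level was 9.32 times that of E18.5, the highest other library, while PN14 and PN28 were lower than E18.5. Levels of Myoc were 0.93, 2.02, 5.62, 3.98, 11.8 and 33.5 FPKM. Retnla stood at 0.05, 0.4, 11.2, 10.7, 24.3 and 57.8 FPKM. Myoc (myocilin) is a glycoprotein of the extracellular space and Retnla (resistin-like alpha) is a secreted protein known from adipose tissue and alternatively activated macrophages. Retnla went from 4 counts at E18.5 to 4481 counts in the adult. Ostn and Myoc were the 2 members among 24 listed myokine and secreted muscle factor genes, of which 7 were highest in the adult.

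The adipocyte marker sum was higher at PN28 than at E18.5, as were Retnla and Myoc, though by a smaller factor. In the adult the sum was lower than at PN28, while Retnla and Myoc were higher. The 18 adipocyte markers summed to 1345, 1636, 2254, 2142, 2341 and 1631 FPKM, with Ucp1 at 0 in the adult. Of the 18, 11 rose and 1 fell from PN2 to PN28 (14.3% and 12.7% of all genes tested), and their part in the changes of Retnla and Myoc was not tested. The 11 macrophage markers in the table summed to 75.6 FPKM in the adult and 158 FPKM at E18.5. The adult was the lowest library in this sum, but after TMM scaling it was not. The 13 fibroblast and tendon markers summed to 406 FPKM in the adult and to between 1698 and 6097 FPKM in the earlier libraries. Only 1 of the 18 adipocyte markers, 1 of the 11 macrophage markers and 2 of the 13 fibroblast and tendon markers were highest in the adult. The edgeR log2 fold change from PN2 to PN28 was 6.81 (SE 0.34, adjusted p = 0.00356) for Retnla and 3.43 (SE 0.40, adjusted p = 0.00703) for Myoc. Ostn did not pass, with a log2 fold change of -0.13 (SE 0.23, adjusted p = 0.678).

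Immune genes were at low levels, with 11 genes of this group between 1.02 and 18.99 FPKM in the adult. For C3 the libraries gave 1.81, 3.38, 1.02, 0.29, 4.83 and 11.7 FPKM. Levels of C7 were 0.3, 0.22, 0.21, 0.13, 1.74 and 8.31 FPKM. C3 and C7 are complement components (chosen after their values were seen), and C7 rose from PN2 to PN28 with a log2 fold change of 3.87 (SE 0.47, adjusted p = 0.00715). Gbp6 stood at 1.11, 1.27, 1.22, 1.65, 1.86 and 4.27 FPKM. For H2-Q7 the libraries gave 0.43, 0.26, 0.16, 0.19, 0.32 and 1.02 FPKM. Gbp6 is an interferon-induced GTPase and H2-Q7 is a class I antigen-presenting molecule of the Q region. Gbp6 was the only one of the 22 listed interferon response genes to meet the rule, and that list summed to 36.9 FPKM in the adult, the lowest of the libraries before TMM scaling and the fourth highest after it. From PN2 to PN28, 15 of the 22 rose and none fell, with a median log2 fold change of 1.49. Among all genes tested, 14.3% rose and 12.7% fell, with a median of -0.04. H2-Q7 was the only one of 13 listed MHC genes. Gbp6 with Gbp10, and H2-Q7 with H2-Q8, are neighbouring copies (Gbp10 on chromosome 5 from 105643926 and Gbp6 from 105699723, H2-Q8 on chromosome 17 from 35531071 and H2-Q7 from 35576100, all mm9), and how fragments were divided between such copies is uncertain. The edgeR log2 fold change from PN2 to PN28 was 1.44 (SE 0.25, adjusted p = 0.0127) for Gbp6, lost with library size alone, and 1.17 (SE 0.51, adjusted p = 0.123) for H2-Q7, which did not pass. T cell and B cell markers summed to 0.46 and 0.33 FPKM in the adult.

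The remaining genes had no shared role. Of the 146, 17 were on a list and 129 on none of the 29 lists, and 40 were left out of the groups made by role. Symbols ending in Rik, given to transcripts without an assigned function, made up 10 of the 146 genes. Levels of 1700001O22Rik were 1.25, 1.03, 0.55, 0.71, 1.72 and 13.1 FPKM. 5031439G07Rik stood at 11.9, 10.9, 11.96, 8.94, 18.4 and 43.3 FPKM. For 9630033F20Rik the libraries gave 1.23, 2.18, 7.78, 6.26, 14.5 and 39.5 FPKM. The level of 1700001O22Rik was lower at PN14 than at E18.5, while that of 9630033F20Rik was higher at each stage than at the one before. Amino acid transporters and aminotransferases had 1 member of 22 (Slc15a5), and denervation-responsive genes, slow fibre genes and heat shock genes had none. The 23 denervation-responsive and junction genes summed to 199 FPKM in the adult and to between 2547 and 11114 FPKM before it. This list also holds Myh3, Myh8, Actc1 and Sln, so the sum does not stand for junction genes alone.

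On the mm9 map, 138 of the 146 genes had a single GENCODE entry and 135 of these were annotated as protein coding. Pairs within 100000 bases of each other numbered 7. In 2 pairs the genes overlap. On chromosome 11, 1110035M17Rik and Zfp652 lie on opposite strands and overlap only over a short stretch at their 5' ends. On chromosome 13, 1110046J04Rik lies inside Serpinb6a, on the opposite strand. Without strand, fragments from overlapping partners cannot be told apart, so the 3.50 FPKM of 1110046J04Rik and the 2.75 FPKM of 1110035M17Rik in the adult are uncertain. Ccnk and Ccdc85c lie 2986 bases apart on chromosome 12, facing each other.

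The PN14 mice, 2 animals of the same stage, differed at least 2-fold in a larger share of these genes than of all genes. Among genes with at least 1 FPKM in either mouse, 16 of 100 (16%) differed at least 2-fold, and all 16 were higher in replicate 1. Of all 11592 genes at that level 3.45% differed at least 2-fold, 65 of these 400 with the higher value in replicate 1. With at least 5 FPKM required in either mouse it was 8 of 62 genes (12.9%), against 2.02% of all. In total, 80 of the 100 genes and 1968 of the 11592 (17%) were higher in replicate 1. The median log2 ratio of replicate 1 to replicate 2 was 0.33 for the 100 genes and -0.24 for all, and after TMM scaling it was 0.59 and 0.01. The largest differences were those of Mss51 (64.7 and 8.64 FPKM), Odf3l2 (4.11 and 0.82 FPKM), Prg4 (1.5 and 0.33 FPKM), C3 (1.02 and 0.29 FPKM) and Nmrk2 (24.7 and 8.39 FPKM). The others of the 16 were Mylk2, Mylk4, Synm, Pfkfb3, Asb15, Thrb, Hsf4, Cst6, Cnksr1, Amy1 and 9530091C08Rik.

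The rule used only the higher of the PN14 libraries, and no test was made between single mice. Replicate 1 also had less summed FPKM of Schwann cell markers (347 against 1243), less of endothelial markers (286 against 416) and more of fast fibre genes (169534 against 139054), and the part of these differences in the result was not tested. With replicate 1 left out of the earlier libraries 152 genes met the rule, and with replicate 2 left out 147 did.

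**Figure D5:**
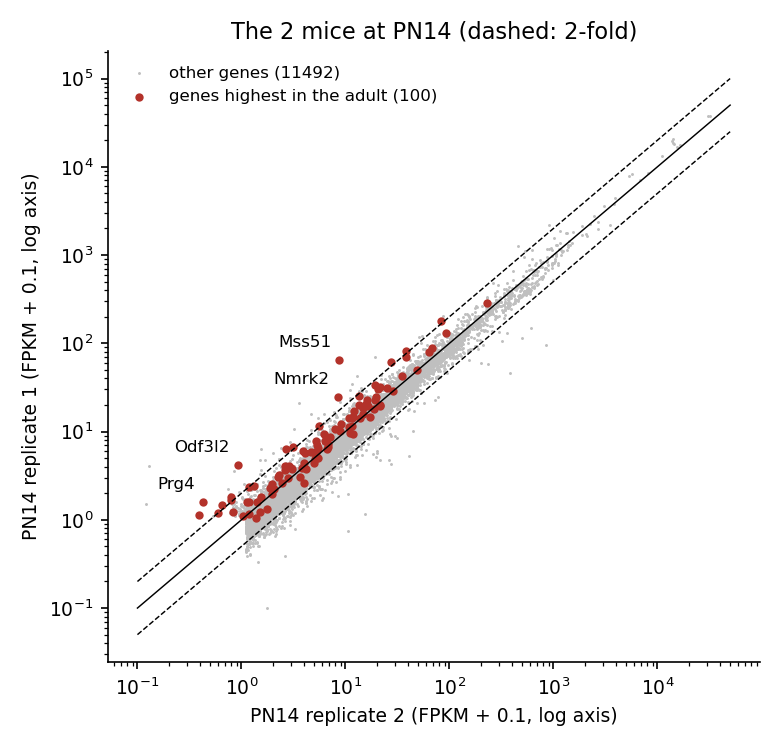
FPKM plus 0.1 in PN14 replicate 1 (vertical, log axis) against replicate 2 (horizontal, log axis), with the 100 of the 146 genes that reach 1 FPKM in either mouse in red, the other genes at that level in grey, equal levels as a solid line and 2-fold differences dashed. Of the red points, 16 lie above the upper dashed line and none below the lower one, and Mss51 is the farthest off.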

How the data were processed

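RNA from gastrocnemius muscle was measured in 6 libraries of 5 stages. According to the methods, the authors aligned reads with TopHat2 (version 2.0.5) to mm9 and used RSEM on RefSeq genes to make the deposited expected counts (whole numbers as deposited) and the FPKM values, which carry 2 decimals. From these, members were selected on FPKM by the stated rule. Changes were tested on the expected counts with edgeR 4.0.16 (R 4.3.3): low-count filter by stage, TMM scaling, quasi-likelihood fit over all 6 libraries with 1 residual degree of freedom (common biological coefficient of variation 0.188), and Benjamini-Hochberg adjustment over 16882 genes. P-values measure only the spread between the PN14 mice. The edgeR fit was tested on simulated data. DESeq2 1.42.0, other scalings, no filter and the adult left out were tried as alternatives.

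Members, lists and tests were chosen with earlier results of these data known. The text names the 10 members with the highest adult FPKM, the 10 with the largest ratio among those of at least 10 FPKM, members on a pathway list, the 3 on either side of the limit, the 5 with the largest called rises from PN2 to PN28 and at least 1 FPKM at PN28, and up to 4 of a symbol family of at least 4 members. Other genes are said to be chosen after their values were seen. A log2 ratio of FPKM used a pseudocount of 0.1. Coordinates are from GENCODE (mm9), promoter windows from RefSeq (GRCm38.p6). Results on some genes are not reported here.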

Additional observations from a re-analysis of the deposited data

How the results depend on the processing

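No paired analysis was possible because the libraries came from different mice, and only PN14 had replicates. The number of genes meeting the rule was 254 with FPKM divided by the TMM factors and 283 with TMM-normalized CPM, all 146 being kept in both, and 55 with a ratio of at least 3. Without one or the other PN14 library it was 147 to 152, and 52 to 75 of the genes differed 2-fold from PN2 to PN14. From PN2 to PN28, 68 genes were called with library size alone, as were 42.4% of all genes. From PN14 to PN28, 21 were called with library size alone, 22 with DESeq2's Wald test, 13 without the filter and 1 without the adult library. The shares of all genes were 1.55%, 0.911%, 0.286% and 0.0119% in this order. From E18.5 to PN2 the counts were 7 with library size alone, 7 with DESeq2's Wald test and 4 without the filter. Here the shares of all genes were 1.43%, 1.03% and 0.495%. The median log2 ratio of the adult to PN28 was 1.43, and 1.19 with a pseudocount of 1 FPKM. With at least 5 FPKM required, 8 genes differed 2-fold between the PN14 mice. The cause of these shifts was not tested. In refits of 55 single-gene changes under the alternatives, 249 values kept their sign and their side of the threshold, 17 lost a call and 6 gained one. With library size alone 3 values that had not passed changed sign, Odc1 to -0.14, Sms to -0.25 and Phlda3 to -0.69. FPKM divided by the TMM factors was also used for the order of libraries, an alternative chosen after seeing the data. Sat1 and Azin1 were called lower with library size alone.

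The rarest gene had 126 adult counts, but 8 genes had 5 counts or fewer in a library before the adult (Retnla, Odf3l2, Inmt, Slc15a5, Trnp1, Tmem45b, H2-Q8 and Zdhhc23), and depth limits their fold changes there. Every stage but PN14 rests on 1 library, and the adult levels were not tested.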
